A study of Mus musculus with 13 samples.

Results

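Neurotrophins and their receptors were followed here through 6 genes, the ligands Ntf3 and Bdnf, the Trk receptors Ntrk2 and Ntrk3, the p75 receptor Ngfr and the sorting receptor Sort1. They were found in the gene count table by matching its Ensembl gene identifiers to these symbols, and all 6 were among the 22048 genes of the table. RNA-seq was run on whole mouse liver in 3 groups. The control group held 6 livers (3 male, 3 female) labelled as not depleted of hepatic stellate cells, pericytes of the sinusoid that store vitamin A. The depleted group held 4 livers labelled as depleted of those cells (1 male, 3 female). The hepatectomy group held 3 livers that kept their stellate cells and were taken 72 h after part of the liver had been removed (2 male, 1 female). The labels used here give no strain, age, genotype, means of depletion or extent of resection, and do not say whether the controls had a sham treatment. The title of the series names neurotrophin-3 as a signal from stellate cells, so the comparisons bear on how Ntf3 and its partners stand when these cells are depleted and when the liver regrows.

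Neurotrophins are secreted growth factors first known for keeping neurons alive. They are made as precursors that proteases such as furin, plasmin and matrix metalloproteinases cut. The mature forms bind the Trk tyrosine kinases (TrkB from Ntrk2 binds BDNF, TrkC from Ntrk3 binds neurotrophin-3, which can also bind TrkB), and also bind p75 from Ngfr. Precursor forms bind p75 together with sortilin from Sort1. In the liver, p75 is known as a surface protein of stellate cells, and sortilin is known in hepatocytes for its part in lipoprotein traffic.

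Totals ran from 35360991 to 51008737 assigned reads per library, so that 3 counts correspond to 0.0524 to 0.09 CPM (read counts relative to the library size, after TMM scaling). All 6 hepatocyte markers examined were detected in each group and none of them passed the test in any comparison. The 17 stellate cell markers summed to 259 to 676 CPM in controls and 266 to 509 after hepatectomy but 10.6 to 58.5 after depletion, and 17 of 17 were lower in depleted livers than in controls. Control 6 had the lowest marker sum of its group, and depleted 4 the highest of its group. Other cell types differed too: neutrophil markers summed to 0.270 to 1.70 CPM in controls, 14.9 to 29.3 after hepatectomy and 159 to 354 after depletion. Kupffer cell markers summed to 50.5 CPM in control 6, 287 to 435 in the other controls and 494 to 1191 after depletion. Of 5, 2 were called higher after depletion. Endothelial markers summed to 76.0 CPM in control 6, 250 to 357 in the other controls and 170 to 367 after depletion. Hepatectomy 2 was low for both, with 56.1 Kupffer and 76.0 endothelial CPM. The other hepatectomy livers had 631 and 232 Kupffer and 237 and 180 endothelial CPM. Vascular smooth muscle markers, 5 genes, summed to 5.79 to 18.9 CPM in controls, to 0.707, 0.829 and 0.996 in depleted 1 to 3 and to 11.8 in depleted 4, with 1 of 3 tested called lower and Cnn1 at 0 in every depleted liver. Their part in the members' differences was not tested. T and B cell markers summed to 3.82 to 6.67, 39.0 to 82.4 and 4.32 to 5.38 CPM in controls, depleted livers and hepatectomy livers respectively. In whole tissue, fewer cells of a type and less RNA per cell cannot be told apart. The hepatectomy livers were registered in the series apart from the other groups. Their TMM factors were 0.858 to 0.882, against 0.942 to 1.19 in all other libraries. The labels name no batch, so separate handling of the hepatectomy group cannot be told apart from the hepatectomy. They do not say whether replicates came from separate animals, so p-values measure the spread between these samples.

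The RefSeq table of start sites (build GRCm38.p6) held 4 of the 6 genes, with 11 start sites, 7 of them of Bdnf. The 250 bases before the start are shown for Ntf3, Ngfr and Ntrk2, the members with the largest differences between groups, to set the ligand that was higher after hepatectomy beside the receptors that were lower after depletion. Each is written 5′ to 3′ along the gene's own strand, with the GC box (GGGCGG, searched on both strands, so that CCGCCC is its reverse) in capitals.
Ntf3, chr6:126166745-126166994, minus strand: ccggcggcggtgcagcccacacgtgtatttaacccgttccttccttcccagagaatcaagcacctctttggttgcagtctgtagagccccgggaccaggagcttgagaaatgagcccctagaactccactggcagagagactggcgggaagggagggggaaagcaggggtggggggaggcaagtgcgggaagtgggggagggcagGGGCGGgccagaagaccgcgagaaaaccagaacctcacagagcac
Ntf3, internal start, chr6:126164961-126165210, minus strand: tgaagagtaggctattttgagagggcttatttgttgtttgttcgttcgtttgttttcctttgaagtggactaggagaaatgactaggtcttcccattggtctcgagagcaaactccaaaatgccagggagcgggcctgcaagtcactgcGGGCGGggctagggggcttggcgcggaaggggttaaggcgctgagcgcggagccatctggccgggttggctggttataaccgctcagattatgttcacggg
Ngfr, chr11:95587699-95587948, minus strand: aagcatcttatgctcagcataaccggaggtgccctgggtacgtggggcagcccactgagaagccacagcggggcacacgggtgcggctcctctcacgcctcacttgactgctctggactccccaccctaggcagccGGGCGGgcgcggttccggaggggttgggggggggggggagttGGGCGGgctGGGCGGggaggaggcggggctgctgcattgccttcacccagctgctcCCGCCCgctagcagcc
Ntrk2, chr13:58806319-58806568, plus strand: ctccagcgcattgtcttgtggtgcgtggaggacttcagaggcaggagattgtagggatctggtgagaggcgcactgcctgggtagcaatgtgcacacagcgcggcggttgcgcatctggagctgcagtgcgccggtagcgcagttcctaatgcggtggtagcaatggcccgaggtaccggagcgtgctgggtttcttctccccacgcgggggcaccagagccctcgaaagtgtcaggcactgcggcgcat

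Each Ntf3 window held 1 GC box, starting 45 and 101 bases before its start site. The Ngfr window held 4, at 114, 72, 63 and 16 bases, the last on the reverse strand. The Ntrk2 window held none. GC boxes were present in 33% of the 32536 distinct windows of this length in the table. None of the 4 windows held the other motifs searched on both strands: the EGR1 site GCGNGGGCG (4.74% of all windows), the AP-1 site TGANTCA (6.73%), the cAMP response element TGACGTCA (1.56%), the STAT site TTCNNNGAA (7.04%) or the TATA element TATAAA (12.3%). These are letter matches, not measured binding.

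Levels were compared between members per length of gene (CPM per kilobase) in control liver. Sort1 was the highest at 4.83 ± 2.28 (mean ± SD, n = 6). Ngfr followed at 1.25 ± 0.59, with every library below the lowest of Sort1 (2.56), and Bdnf (0.326 ± 0.160), Ntf3 (0.307 ± 0.122) and Ntrk2 (0.195 ± 0.245) came next. With both sexes pooled these last 3 did not differ beyond their spread, and control 6 put Ngfr in their range too (0.148). In male controls Ntrk2 was 0.0314 ± 0.0089 (n = 3), with every library below the lowest of Ntf3 (0.168) and Bdnf (0.309). In female controls it was 0.359 ± 0.265, beside 0.299 ± 0.145 for Ntf3 and 0.279 ± 0.226 for Bdnf. Ntrk3 was the lowest at 0.0278 ± 0.0149. After hepatectomy Ntf3 reached 2.09 ± 0.59 (n = 3), which put it beside Sort1 at 2.61 ± 0.48 and above the other members.

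**Figure D1:**
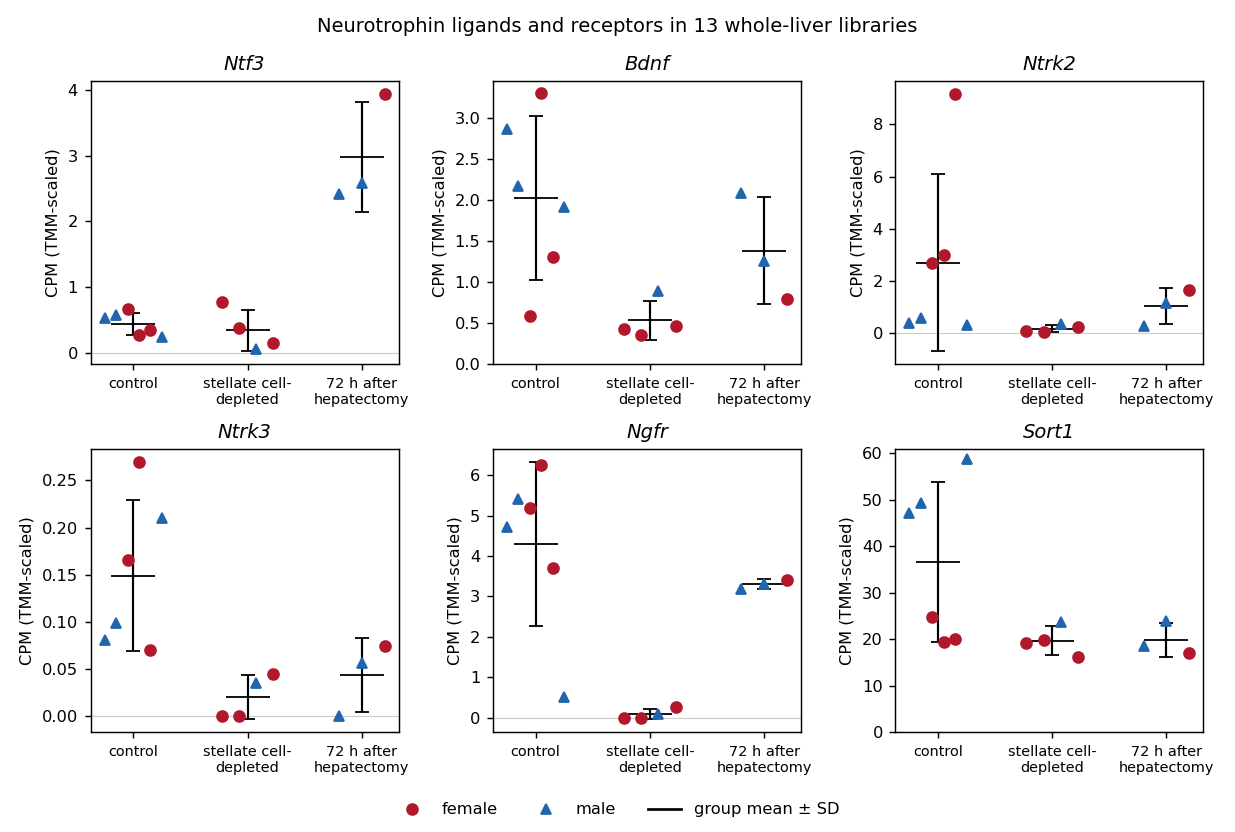
CPM of each of the 6 genes in every library (y axis, linear, TMM-scaled), by group on the x axis; points are livers, with the mean and SD of the group. Ntf3 is high in the 3 hepatectomy livers (2.41 to 3.94), Ngfr is at or under 0.267 in the 4 depleted livers, and Ntrk2 and Sort1 spread widely within controls.

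Ntf3, which encodes neurotrophin-3 (ENSMUSG00000049107, chr6:126101413-126166744, minus strand, mm10), was higher 72 h after hepatectomy and, in the model of group and sex, showed no called difference after depletion. Controls ranged from 0.240 CPM to 0.661 with a median of 0.443. The hepatectomy livers had 2.41, 2.58 and 3.94 CPM (82, 92 and 158 reads). Each of them lay above every control and every depleted liver. Ntf3 was 6.98-fold higher than in controls (log2 fold change 2.80 ± 0.55, SE; edgeR quasi-likelihood adjusted p = 0.00989), and the call held without each control or hepatectomy library in turn. In the model with a sex interaction it was 2.46 ± 0.63 in males (edgeR adjusted p = 0.0439) and 3.20 ± 0.72 in females (0.0901), where the group holds 1 female. Of the 5 members tested, 1 was higher and 1 lower after hepatectomy, against 8.42% of all 13831 genes called (6.06% higher, 2.36% lower). That balance turned round with library size alone, where 626 genes were called higher and 1566 lower in place of 838 and 326. With the replicate number as a block they were 460 and 172, of 632 called. Without hepatectomy 2 the lower genes numbered 82, without control 1 they numbered 170 and without control 2 they numbered 155. The higher genes numbered 401 to 930 with 1 library left out at a time, and moved most without control 1 or hepatectomy 2.

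Depleted livers had 0.771, 0.381, 0.0524 and 0.156 Ntf3 CPM in order of replicate number. They lay on both sides of the controls: depleted 1 was above every control and depleted 3 and 4 were below every control. Depleted 1 rested on 36 reads (exact 95% Poisson interval 0.540 to 1.07 CPM) and depleted 3, the male, on 3 reads (0.0108 to 0.153), so the spread within the group was beyond counting error. The log2 fold change from control was -0.65 ± 0.60 (edgeR adjusted p = 0.440). It was -1.35 without depleted 1 (0.09996) and -0.10 without depleted 3 (0.928), and not called without any one library. In the females alone it was 0.04 ± 0.65 (edgeR adjusted p = 0.972). In the model with a sex interaction it was 0.03 ± 0.59 in females (edgeR adjusted p = 0.977) and -3.03 ± 1.10 in males (0.0840), the latter resting on 1 depleted male. The interaction itself was -3.07 ± 1.24, with an edgeR adjusted p of 1.00 (0.0312 before adjustment). The stellate marker sum was lower than in every control in all 4 of these livers. Against hepatectomy livers, depleted livers were lower by a log2 fold change of -3.46 ± 0.68 (edgeR adjusted p = 0.00335).

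Ntf3 was also set against the stellate marker reads of the same library. It had 0.399 to 1.14 reads per 1000 reads of the 17 markers in controls and 5.69 to 9.72 after hepatectomy. Depleted livers had 67.5, 35.9, 3.28 and 2.67. Those ratios have small denominators in depleted livers, 473 to 2625 marker reads, and describe the libraries only. The same ratio of Bdnf, whose CPM fell, was 37.5, 33.8, 55.7 and 8 in depleted livers against 0.877 to 7.40 in controls, so a higher ratio there is not particular to Ntf3. Of 8 tested markers of portal fibroblasts and mesothelium, 6 were higher after hepatectomy, and none of the 9 listed was at 0 in a whole group. Their sum was 24.3, 20.9 and 75.5 CPM in hepatectomy livers and 6.99 to 21.3 in controls, so that hepatectomy 3 alone was far above the controls. In depleted livers, where Ntf3 was at most 0.771 CPM, the same sum was 17.4, 17.5, 25.1 and 26.3. Gene by gene, 1 of the 8 tested was higher and 2 were lower in depleted livers than in controls. Against hepatectomy livers 1 was higher and 5 were lower, with a median log2 fold change of -2.97. Cholangiocyte markers were called higher after hepatectomy in 2 of 5, with sums of 87.0 to 95.4 CPM against 49.1 to 93.0 in controls. Schwann cell and nerve markers were called higher in 2 of 5 tested, with sums of 2.13 to 4.04 CPM against 2.22 to 3.12 and Sox10 and S100b at 0 after hepatectomy. All 7 proliferation markers were higher, as were 4 of 5 tested neutrophil markers. The 17 stellate markers had a median log2 fold change of -0.26 after hepatectomy, and edgeR called 0 of them. The part of these cell types in the Ntf3 result was not tested.

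**Figure D2:**
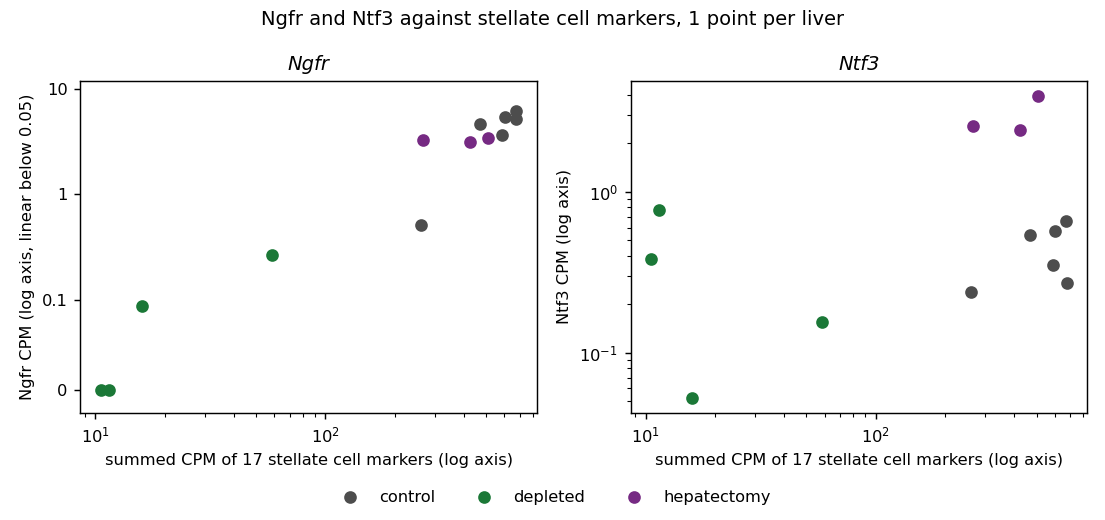
Ngfr (left) and Ntf3 (right) CPM on the y axis against the summed CPM of 17 stellate cell markers on the x axis, all log axes except that Ngfr is linear below 0.05; each point is 1 liver, coloured by group. The 4 depleted livers lie left of all others (10.6 to 58.5 CPM of markers) with Ngfr at or under 0.267, while their Ntf3 spreads over the range of the controls and beyond it.

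Bdnf, the gene of brain-derived neurotrophic factor (ENSMUSG00000048482, chr2:109674700-109727007, plus strand, mm10), fell after depletion. Controls ranged from 0.590 to 3.30 CPM with a median of 2.05. Depleted livers had 0.428, 0.358, 0.891 and 0.468 CPM. All but depleted 3, which lay above control 3, were below every control. The log2 fold change was -1.79 ± 0.44 (edgeR adjusted p = 0.00723). It held without any one library, with a range of -1.99 to -1.27, and in the females alone it was -2.05 ± 0.64 with an edgeR adjusted p of 0.0624. In the model with a sex interaction it was -2.05 ± 0.57 in females (edgeR adjusted p = 0.0299) and -1.38 ± 0.83 in the 1 depleted male against control males (0.285). Hepatectomy livers had 2.09, 1.26 and 0.798 CPM, within the range of the controls (log2 fold change -0.73 ± 0.47, edgeR adjusted p = 0.362).

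Ntf5, the mouse gene of neurotrophin-4, another TrkB ligand, was close to the floor, with 0 to 4 reads per control, 0 to 2 per depleted liver and 6, 2 and 9 after hepatectomy. An exact two-sided permutation test of its CPM gave p = 0.0238 for hepatectomy against control, where the smallest possible is 0.0119, and 0.0571 after adjustment over the 6 tests of Ntf5 and Ntrk3.

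Ntrk2, the TrkB gene (ENSMUSG00000055254, chr13:58806596-59133970, plus strand, mm10), was lower in depleted livers and split by sex within controls. Counts per gene do not separate the full-length receptor from its truncated forms. Female controls had 2.69, 3.01 and 9.17 CPM and male controls 0.402, 0.568 and 0.330, with no overlap. In the 6 controls alone, the female level was 11.3-fold higher (male minus female log2 -3.50 ± 0.57, edgeR adjusted p = 0.0381). In the interaction model over all 13 libraries the same difference was -3.50 ± 0.71 and was not called (edgeR adjusted p = 0.0681). Of the 5 members, Ntrk2 and Sort1 were called by sex, against 0.738% of 13005 genes (0.384% higher in males, 0.354% lower). The Ntrk2 call was lost without control 1 (-3.44, edgeR adjusted p = 0.247), control 2 (-3.75, 0.0579), control 5 (-2.71, 0.0784) or control 6 (-3.34, 0.184).

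Depleted livers had 0.0857, 0.0448, 0.367 and 0.223 Ntrk2 CPM, the third being the male. The 3 depleted females lay below all 3 control females, and the depleted male lay between the control males. With sex in the model the log2 fold change was -3.33 ± 0.99 (edgeR adjusted p = 0.0207). The call was lost without depleted 1 (-2.86, adjusted p = 0.0700), depleted 2 (-2.81, 0.0582) or depleted 4 (-3.14, 0.0597), and the difference was -5.11 without depleted 3. Taken by sex in a model with an interaction, the log2 fold change was -5.36 ± 0.80 in females (edgeR adjusted p = 0.00155) and -0.25 ± 0.98 in males (0.894). The interaction itself was 5.12 ± 1.18, with an edgeR adjusted p of 1.00 (0.00121 before adjustment), and it rests on 1 depleted male; 0.0217% of genes were called in that test. Hepatectomy livers had 0.294 and 1.15 CPM in males and 1.67 in the female (log2 fold change -0.67 ± 0.98, edgeR adjusted p = 0.723).

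Ntrk3, the TrkC gene (ENSMUSG00000059146, chr7:78192362-78578408, minus strand, mm10) and the main receptor for neurotrophin-3, was the scarcest member and did not pass the low-count filter. Controls had 3, 4, 7, 12, 3 and 7 reads, depleted livers 0, 0, 2 and 2, and hepatectomy livers 0, 2 and 3. Every depleted liver was below every control in CPM. An exact two-sided permutation test gave p = 0.0190 for depleted against control (smallest possible 0.00476), and 0.0571 after adjustment over 6 tests. For hepatectomy against control the exact test gave p = 0.0714, or 0.107 adjusted.

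Ngfr, the p75 gene (ENSMUSG00000000120, chr11:95568818-95587735, minus strand, mm10), showed the largest difference of the 5 members tested in depleted livers. Controls ranged from 0.510 to 6.25 CPM with a median of 4.95. Control 6, also low in stellate, endothelial and Kupffer cell markers, was the low one, with 17 reads, and the other 5 had 158 to 278. Depleted livers had 0, 0, 0.0873 and 0.267 CPM, that is 0, 0, 5 and 12 reads, where 0 reads allow up to 0.0790 and 0.0826 CPM by the exact 95% Poisson limit. The groups did not overlap, and the log2 fold change was -5.62 ± 0.91 (edgeR adjusted p = 0.000551). With each library left out in turn it was -6.90 (without depleted 4) to -5.22 (without depleted 1), and was called each time. With control 6 and depleted 4 both left out, an alternative chosen after seeing the data, it was -7.16 ± 0.64 (edgeR adjusted p = 2.50e-05). In the model with a sex interaction it was -5.79 ± 1.18 in females (edgeR adjusted p = 0.00866) and -5.30 ± 1.88 in males (0.0819), the latter resting on 1 depleted male.

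Hepatectomy livers had 3.17, 3.31 and 3.42 Ngfr CPM, all within the range of the controls (log2 fold change -0.30 ± 0.73, edgeR adjusted p = 0.844). Against them, depleted livers were lower by a log2 fold change of -5.31 ± 0.97 (edgeR adjusted p = 0.00232). In that comparison 2 of the 5 members, Ntf3 and Ngfr, were lower and none higher, against 23.4% of all genes called (13.3% higher, 10.1% lower). With library size alone 3102 of all genes were higher and 610 lower, in place of 1837 and 1399. Without depleted 3 they numbered 1051 and 658. Per 1000 stellate marker reads, Ngfr had 1.97 to 10.02 reads in controls, 6.71 to 12.5 after hepatectomy, and 0, 0, 5.46 and 4.57 in depleted livers. Schwann cell and nerve markers, examined because those cells also carry p75, were higher: their sum over 9 genes was 5.64 to 8.98 CPM in depleted livers against 2.22 to 3.12 in controls, 3 of 5 tested were higher, and the defining gene Sox10 was at 0 in every control.

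Sort1, the sortilin gene (ENSMUSG00000068747, chr3:108284082-108361511, plus strand, mm10), was the member with the most reads. After hepatectomy it was one of the 2 members called. Male controls had 47.2, 49.4 and 58.8 CPM and female controls 24.7, 19.4 and 19.9, with no overlap. The level was 2.42-fold higher in male controls (male minus female log2 1.28 ± 0.16, edgeR adjusted p = 0.0102). That call was lost without control 1 (1.34, adjusted p = 0.0541) or control 5 (1.23, 0.0561). Depleted females had 19.1, 19.8 and 16.2 CPM and the depleted male 23.7. Hepatectomised males had 18.5 and 23.9 CPM and the female 16.9. Every treated male thus lay below all 3 control males.

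With sex in the model, the log2 fold change of Sort1 was -0.56 ± 0.20 after depletion (edgeR adjusted p = 0.0451) and -0.89 ± 0.21 after hepatectomy (0.0226). The first call was lost without control 1, 2, 3 or 6 or depleted 1, 3 or 4, with adjusted p from 0.0569 (without depleted 1) to 0.258 (without depleted 3, where the difference was -0.38). It was also lost when library size alone set the scale (-0.46, 0.0683) and when only the 2 groups were fitted (-0.50, 0.0629). The second was lost without control 1 (-0.88, 0.0512), control 2 (-0.85, 0.0517), hepatectomy 1 (-0.73, 0.0884) or hepatectomy 2 (-0.89, 0.0903), and without sex in the model (-0.89, 0.134). In the model with a sex interaction the differences in males were -1.13 ± 0.25 after depletion (edgeR adjusted p = 0.0115, 1 depleted male) and -1.29 ± 0.19 after hepatectomy (0.00725). In females they were -0.22 ± 0.17 (0.406) and -0.33 ± 0.24 (0.708). The sex by hepatectomy interaction of Sort1 was -0.96 ± 0.30, with an edgeR adjusted p of 0.679 (0.0082 before adjustment), where 0.00% of genes were called.

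**Figure D3:**
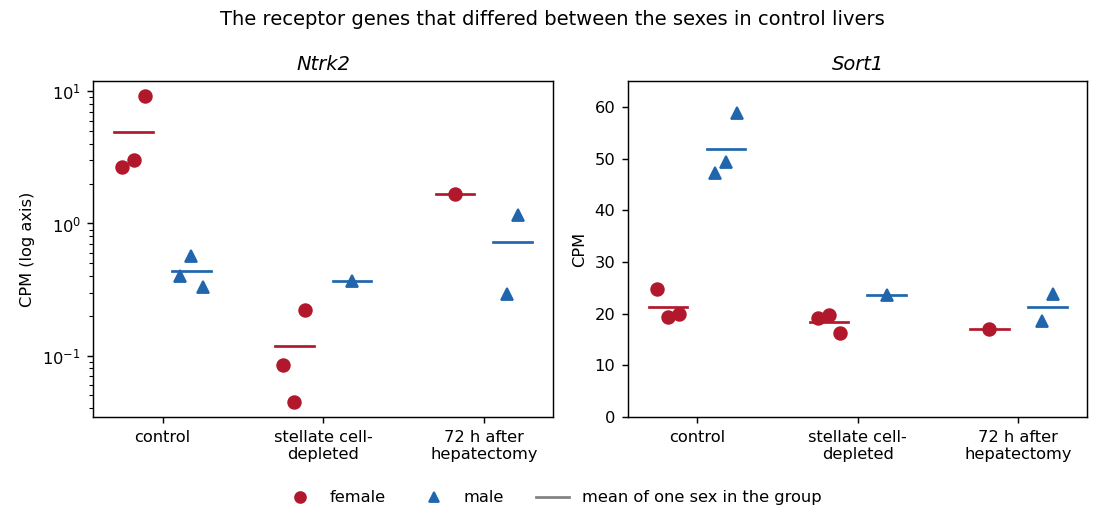
Ntrk2 (left, log axis) and Sort1 (right, linear axis) CPM on the y axis by group and sex on the x axis, 1 point per liver. In controls the females are above the males for Ntrk2 (2.69 to 9.17 against 0.330 to 0.568) and below them for Sort1 (19.4 to 24.7 against 47.2 to 58.8), and the treated livers of both sexes lie close together for Sort1.

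In depleted livers against controls, 4 of the 5 members tested (Bdnf, Ntrk2, Ngfr and Sort1) were lower and none was higher, against 33.9% of all genes called (18.9% higher, 15.0% lower). With library size alone 2884 of all genes were higher and 1471 lower, in place of 2614 and 2078. Without depleted 3 the genes called lower numbered 1174, and in females only 861. The median log2 fold change of the 5 was -1.79, beside -0.03 over all genes. After hepatectomy it was -0.67, beside -0.02. The depletion and hepatectomy comparisons share the 6 controls, so each gene's pair of values is not independent. For Ntf3 the pair was -0.65 and 2.80, for Bdnf -1.79 and -0.73, for Ntrk2 -3.33 and -0.67, for Ngfr -5.62 and -0.30, and for Sort1 -0.56 and -0.89. Without control 6 and depleted 4, the same members but Sort1 (-0.47, edgeR adjusted p = 0.102) were called lower after depletion.

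**Figure D4:**
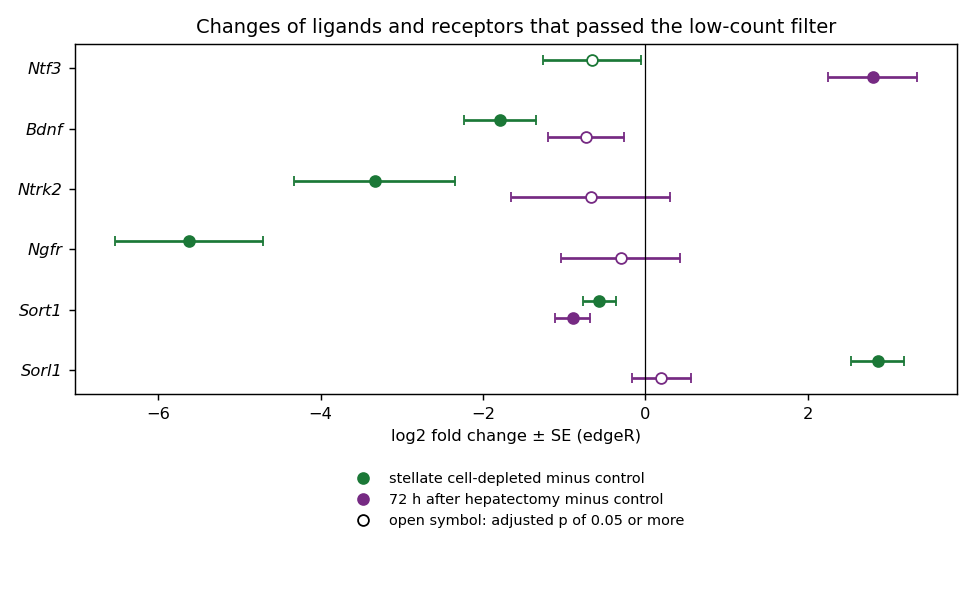
Log2 fold change (x axis) with its SE for Ntf3, Bdnf, Ntrk2, Ngfr, Sort1 and Sorl1 (y axis) in each comparison with controls, from the edgeR fit with sex. Ngfr (-5.62) and Ntrk2 (-3.33) lie far below 0 after depletion, Sorl1 (2.86) above it, and Ntf3 (2.80) is the only one of the 6 called higher after hepatectomy.

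Outside the 6 members, Sorl1, a sortilin relative that sorts cargo in the endosome, was higher in depleted livers. Depleted livers had 10.4 to 20.6 CPM, controls 1.08 to 3.81 and hepatectomy livers 1.79 to 3.27. The depleted livers did not overlap either group, and the log2 fold change from control was 2.86 ± 0.32 (edgeR adjusted p = 3.86e-05). Sort1 was called lower after depletion, but not in females only (-0.21, edgeR adjusted p = 0.413). Its call was also lost in 7 of 10 fits with 1 library left out. T and B cell markers were called higher after depletion in 7 of 7 and neutrophil markers in 5 of 5 tested. Their part in the Sorl1 result was not tested. Nradd, a p75-related gene, was not called (0.53 ± 0.46, 0.414). Sorcs1 had no read in any library.

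Beyond the members, 58 pathway genes found in the table are reported here by role, of which 51 passed the filter. After depletion 8 of these 51 were higher and 4 lower, and after hepatectomy 5 were higher and 1 lower. These are 23.5% of the 51 after depletion and 11.8% after hepatectomy, where 33.9% and 8.42% of all genes were called. The number called after depletion was 5 in females only. After hepatectomy it was 15 with library size alone, 3 with the replicate block and 1 in males only. Of 7 proneurotrophin proteases, the one called after depletion was Mmp7, matrilysin, a protease able to cut proneurotrophins, at 0 to 0.157 CPM in controls and 1.39 to 5.71 in depleted livers (5.74 ± 0.63, edgeR adjusted p = 3.09e-05). Of 7 tested partners of p75, the one called was Arhgdia, a regulator of small GTPases that p75 binds (0.75 ± 0.13, 0.000681).

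Of 15 adaptors and effectors of Trk receptors tested, 1 was higher and 4 were lower after depletion. The share called, 33.3%, was near the 33.9% of all genes. The higher one was Grb2, an adaptor between receptors and Sos1 (0.67 ± 0.12, edgeR adjusted p = 0.00126). Its call after depletion was not examined under the alternatives or with single libraries left out. The lower ones were Gab1, a docking protein (-0.62 ± 0.16, edgeR adjusted p = 0.00866), Plcg1, phospholipase C gamma (-0.59 ± 0.13, 0.00405), Sos1, an exchange factor for Ras (-0.54 ± 0.12, 0.00375), and Sh2b1, an adaptor (-0.42 ± 0.12, 0.0172). Each was a change of less than 1 log2 unit in a gene with several roles outside neurotrophin signalling. In females only none of the 4 lower ones was called (edgeR adjusted p 0.0822 for Gab1, 0.130 for Plcg1, 0.0912 for Sos1 and 0.144 for Sh2b1). The Sh2b1 call was also lost without depleted 3 (adjusted p = 0.0769) and with library size alone (0.0627). After hepatectomy Plcg1 was again lower (-0.86 ± 0.14, 0.00437) and Grb2 was again higher (0.57 ± 0.14, 0.0217), though not with the replicate number as a block (0.62, 0.0600).

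Of 20 genes reported from the ERK pathway, 4 were higher after depletion and 4 after hepatectomy. Of all genes, 18.9% were higher after depletion and 6.06% after hepatectomy, so that the count after depletion is near the share of all genes. Fos, an immediate early transcription factor, ranged from 0.150 to 1.19 CPM in controls, from 3.36 to 5.57 after depletion (2.66 ± 0.44, edgeR adjusted p = 0.000533) and from 2.98 to 9.10 after hepatectomy (3.05 ± 0.46, 0.00289). Egr1, another such factor, had 4.59 to 31.6, 30.2 to 56.9 and 45.1 to 158 CPM in the same order (1.54 ± 0.52, 0.0385 and 2.86 ± 0.54, 0.00924). Dusp5, a phosphatase that switches off ERK, was higher in both (1.40 ± 0.38, 0.0123 and 1.79 ± 0.40, 0.0174). Etv4, an ERK-responsive factor, was higher after hepatectomy (2.31 ± 0.64, 0.0426). Its levels were low and overlapped, at 0.0234 to 0.241 CPM in controls, reaching below the 3-count floor, and 0.176 to 0.758 after hepatectomy. With the replicate number as a block, the hepatectomy values of Egr1 (2.32, 0.0775), Dusp5 (1.58, 0.0729) and Etv4 (1.87, 0.250) were not called. The remaining called gene after depletion was the GTPase gene Nras (0.41 ± 0.13, 0.0315), whose call was not examined under the alternatives or with single libraries left out. These genes answer to many signals. Proliferation markers, 7 genes, summed to 22.4 to 60.9 CPM in controls, 93.1 to 550 after hepatectomy and 70.8 to 165 after depletion, and their part in the ERK genes was not tested.

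Some of these pathway calls rested on single libraries. After depletion, Egr1 was lost without any of controls 1, 3, 4, 5 and 6 or depleted 1, 2 and 3 (adjusted p 0.0503 to 0.162), and Dusp5 without depleted 3 (1.13, 0.112). After hepatectomy, Egr1 was lost without hepatectomy 3 (2.33, 0.0617), as was Dusp5 (1.23, 0.149). Grb2 was lost without control 1 (0.0586), control 2 (0.0534) or hepatectomy 2 (0.116). Etv4 was lost without controls 2 to 6 or hepatectomy 2 or 3, at adjusted p up to 0.220. With the block, Ntf3 (2.40, 0.0260), Fos (2.63, 0.0301) and Plcg1 (-0.83, 0.0290) were called after hepatectomy. Between depleted and hepatectomy livers, 4 of 51 were higher (Mmp7 5.11, Sorl1 2.67, Ripk2 0.85 and Arhgdia 0.49) and 3 lower (Plat -2.48, Hras -0.92 and Spry1 -0.90). These 7 are 13.7% of the 51, where 23.4% of all genes were called, and the number was 13 with library size alone and 4 with only the 2 groups fitted or without depleted 1, depleted 3 or hepatectomy 3. Of these 7, the calls of Mmp7 and Sorl1 held without each library in turn.

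**Figure D5:**
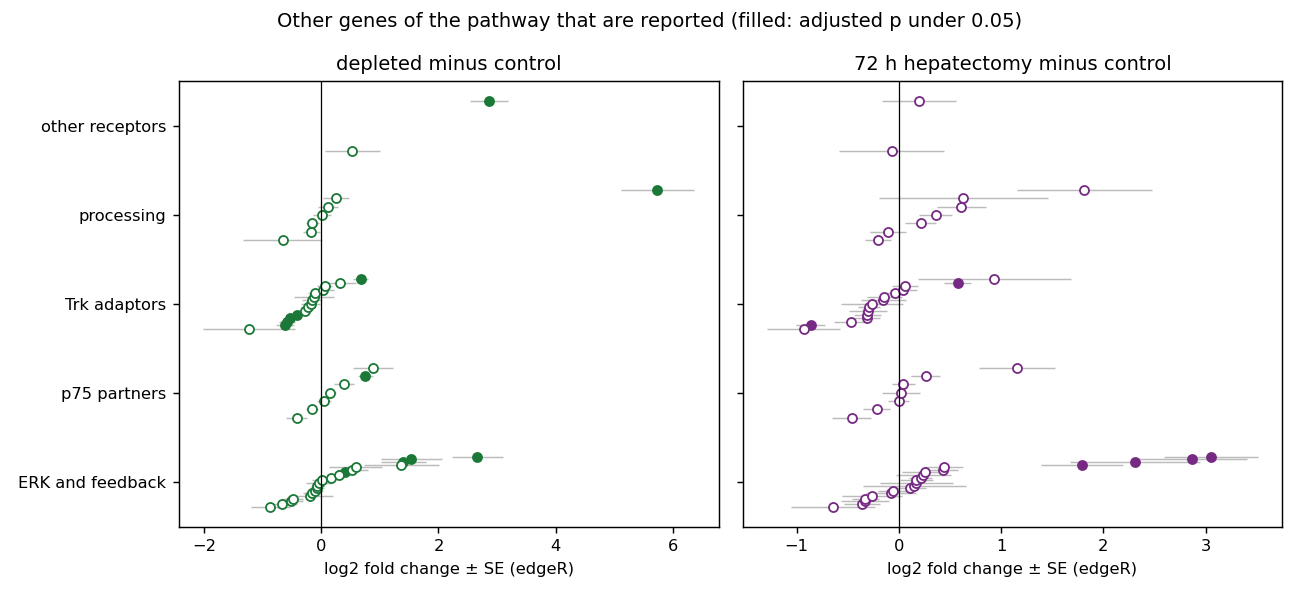
Log2 fold change of the reported pathway genes outside the 6 members (x axis), by role on the y axis, after depletion and after hepatectomy; each point is 1 gene, filled where the edgeR adjusted p was under 0.05. Most points lie near 0, with Mmp7 (5.74) and Sorl1 (2.86) farthest right after depletion, and Fos (3.05) and Egr1 (2.86) farthest right among called genes after hepatectomy.

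For the 5 members that passed the low-count filter, so not for Ntrk3, the nearest genes over the 13 libraries were found. The measure was the root mean square distance between centred log2 CPM profiles, where the member's own spread is the distance to a flat profile. For Ngfr they were Mamdc2 (0.58), Angptl2 (0.66) and Daam2 (0.68), against an own spread of 2.58. For Ntf3 they were Cdh3 (0.81), Nnat (0.83) and Fbln2 (0.85), against 1.47, and Fbln2 is in the portal fibroblast and mesothelial list above. For Sort1 they were Arhgap26 (0.23), Aadat (0.24) and Kazald1 (0.33), against 0.60. For Bdnf they were Adh4 (0.45), Gclc (0.49) and Prss8 (0.50), against 0.99. For Ntrk2 they were Gucy1a2 (0.96), Disp2 (1.02) and Itga8 (1.02), against 1.83.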

How the data were processed

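Whole-liver RNA (TRIzol, stranded TruSeq mRNA kit, 500 ng, 2 flowcell lanes, per the labels' protocols) was sequenced in 13 libraries. The deposited values are whole-number read counts per gene that the authors made with STAR 2.7.1a, SAMtools 1.15.1 and featureCounts 1.6.4 on mm10, per the submitters' processing notes. The strand setting is not given in the sources used here, so overlapping genes may share reads. Of 22048 gene identifiers 21741 matched a symbol.

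Counts were tested with edgeR 4.0.16 (R 4.3.3): TMM scaling, filterByExpr, quasi-likelihood fit on group and sex over all 13 libraries, Benjamini-Hochberg adjustment over 13831 genes, threshold 0.05. Ntrk3 and Ntf5, under the filter, had an exact permutation test on CPM. Log2 CPM profiles used a prior count of 2. Alternatives used DESeq2 1.42.0 and limma 3.58.1. The test was checked on simulated data.

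Named genes were the 6 members, Ntf5, the pathway genes called with the largest change (up to 6 a direction) and the 3 nearest profiles per member; Sorl1 is among the pathway genes, and Nradd, Sorcs1 and, for depletion, Grb2 and Nras were added after their values were seen. The sex by hepatectomy interaction and the GC box and TATA motifs were also chosen after seeing the data. Of the genes listed, 4 are not reported here, and counts over the lists leave them out. Members and lists were chosen with earlier results of these data known.

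Same-numbered libraries were checked for pairing. Their deviations from group means correlated in 3 of 3 control and hepatectomy pairs (lowest r 0.107) and in 0 of 4 control and depleted pairs over 0.1. The 3 pairs share sex, and with sex also removed 0 of 3 were over 0.1. Block values are therefore given with the hepatectomy results whose call they change. Intervals cover counting error only. No libraries were near-identical (smallest median chi-square within a group 4.6).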

Additional observations from a re-analysis of the deposited data

Results flagged for a closer look

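Ntrk2 in control 5, a female, was far above the other controls, at 9.17 CPM against 0.330 to 3.01. The gap to the next liver was 0.697 of the whole range of the 6 controls, above Dixon's 95% critical value of 0.625. The control females were all above the control males, so the 6 livers are not of one kind. Of 18 groups of libraries examined in this way 1 stood out, and chance gives about 0.9. Without control 5 the log2 fold change of Ntrk2 after depletion was -2.69 ± 0.83 (edgeR adjusted p = 0.0289), and its difference between the sexes was -2.71 (edgeR adjusted p = 0.0784).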

How the results depend on the processing

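After depletion, Bdnf was not called in females only (log2 -2.05, edgeR adjusted p = 0.0624), and neither Bdnf (-1.38, 0.285) nor Ngfr (-5.30, 0.0819) was called for males in the model with a sex interaction; both were called under the other alternatives run. Sort1 was not called with only the 2 groups fitted (-0.50), with library size alone (-0.46), in females only (-0.21, 0.413) or without control 6 and depleted 4 (-0.47). Ntf3 was called lower with the replicate block (-1.53, 0.0392), where the numbers do not pair the libraries, and its sign turned in females only (0.045). The number of genes called in females only was 2695, with fewer libraries. After hepatectomy, Ntf3 had log2 values from 2.40 (replicate block) to 3.20 (females in the interaction model, edgeR adjusted p = 0.0901) and was called under every other alternative run, at 0.0490 in males only. Sort1 was not called without sex in the model (-0.89, 0.134), and Ntrk2 turned sign in males only (0.72, 0.647). Genes called, 1164, became 2192 with library size alone, 1939 with DESeq2, 632 with the replicate block and 613 in males only. Library size alone moved the median of all genes to 0.08 after depletion, -0.24 after hepatectomy and 0.27 between depleted and hepatectomy livers. Between those, Sort1 turned sign without sex (-0.0066) and was called with library size alone (0.64, 0.0381), Ntrk2 was called with limma-voom (-3.63, 0.0147) and with the replicate block (-2.96, 0.0095), and 2105 genes were called with only the 2 groups fitted. In controls, Ntrk2 by sex was not called with limma-voom (-3.26, 0.121) or in the interaction model (-3.50, 0.0681), and its sex by depletion interaction was called with DESeq2 (5.18, 0.0274). DESeq2 gave no adjusted p for Ntrk2 in the 3 group comparisons. Ntrk3 in a fit with no low-count filter was lower after depletion (-2.75, edgeR adjusted p = 0.0350). The cause of these shifts was not tested.

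Leaving out each library in turn gave -1.35 (without depleted 1) to -0.10 (without depleted 3) for Ntf3, -0.67 to -0.38 for Sort1 and -5.11 to -2.69 for Ntrk2 after depletion, with 2960 (without depleted 3) to 4817 genes called. After hepatectomy it gave -1.15 to -0.73 for Sort1 and 483 to 1331 genes called, with 692, 742 and 483 without control 1, control 2 and hepatectomy 2. Between depleted and hepatectomy livers it gave -5.03 (without depleted 3, called at 0.00769) to -2.02 for Ntrk2 and 1709 (without depleted 3) to 3850 genes called. By sex in controls the ranges were -0.17 to 0.53 for Ntf3, -3.80 to -2.71 for Ntrk2, 1.18 to 1.39 for Sort1 and -0.95 to 0.0017 for Ngfr. For the sex by depletion interaction they were -0.20 to 1.08 for Bdnf and -0.093 to 5.42 for Ngfr, and for sex by hepatectomy -0.22 to 1.06 and -0.079 to 0.86. Interactions without depleted 3 or hepatectomy 3 could not be fitted, since no male or no female is then left in the group. The Ntf5 difference after depletion turned sign without control 4 (range -0.0199 to 0.0015 CPM), without a call. Ntrk3 and Ntf5 had at most 12 reads per library, so that counting error is large for both.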
